A study of Mus musculus with 9 samples.

Results

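The NF-kB inhibitors Nfkbia, Nfkbiz and Tnfaip3, the subunits Nfkb1, Nfkb2 and Relb, the chemokines Cxcl1, Cxcl2 and Ccl2 and the early-response gene Ier3 are described here, 10 of the 55451 genes in the deposited expression table. They were picked by gene symbol, from a list selected on the measured differences between the 3 groups of libraries, so those differences describe the choice: no p-value is given for them, and where a fit over all genes called a member (adjusted p under 0.05) this is stated as a description that supports nothing. RNA sequencing was done on HEI-OC1, an immortalised mouse line derived from organ of Corti tissue and labelled as a cochlear hair cell line. Cells were transduced with empty vector (EV), with wild-type human LMX1A (WT) or with the c.915dup frameshift form of LMX1A (c915dup), 3 libraries a group. LMX1A is a LIM-homeodomain transcription factor. Medium was DMEM with 10% serum, penicillin and streptomycin, so the 3 groups share the line, the transduction and the culture, and they differ in what the vector carried. Neither the promoter that drove LMX1A nor whether cells were pooled or cloned is stated in the labels used here. Deposited columns are numbered 1, 2 and 3 in EV and WT and 1, 3 and 4 in c915dup, and libraries are named by those numbers.

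NF-kB transcription factors are dimers of Rel-family proteins that IkB proteins hold in the cytoplasm until IkB kinases mark the inhibitors for degradation. Freed dimers enter the nucleus and switch on chemokine and cytokine genes, together with genes for their own inhibitors and subunits, which makes several of the 10 transcripts common readouts of the pathway. In the cochlea the pathway is known for its part in responses to noise, to ototoxic drugs and to inflammation. The working name of the group speaks of CXC chemokines, but Ccl2 belongs to the CC chemokines and Ier3 is neither a chemokine nor an inhibitor of the IkB family.

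Human LMX1A was listed at 0 FPKM (fragments per kilobase, scaled to mapped fragments) in the EV libraries, at 131 to 133 in WT and at 149 to 170 in c915dup, while mouse Lmx1a was at 0 in all 9 libraries. Of 11 hair cell markers only Myo6 reached 1 FPKM in 3 or more libraries, and Pou4f3, Atoh1, Otof, Slc26a5 and Ocm were at 0 throughout, so the hair cell label was not borne out by these defining markers. Markers of fibroblasts summed to between 1119 and 1255 FPKM per library, with 6 of 8 detected. Markers of macrophages and other immune cells, which also make these chemokines, summed to 4.81 to 6.02 FPKM in EV, 3.61 to 5.43 in WT and 4.30 to 5.70 in c915dup. Adgre1, Tyrobp and Cd3e were at 0, and 2 of 12, Cd68 and Lyz2, were detected. The libraries numbered 1 stood apart: mitochondrial genes took 4.36 to 5.49% of their FPKM against 1.69 to 2.17% elsewhere, so group differences of the members are also given between the libraries numbered 1 and among the rest. Depth is not given. An approximation took the commonest low value of FPKM times length in genes with 1 annotated transcript as 1 fragment. Sought only within a fixed range, that value put the depth at 13000000 to 15900000 fragments a library.

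Promoter sequence was searched for motifs in the members that had a listed promoter. RefSeq listed promoters for 6 of the 10 genes, and each of the 6 held at least 1 match to the kappa B consensus, the DNA element of NF-kB dimers, within the 250 bases before the start of its first listed promoter. Over 32851 mouse promoters searched the same way on both strands, 7.25% held a match, and so did 8.23% of 27025 genes. Nfkbiz, Nfkb1, Relb and Ccl2 had no entry and were not searched. The members were named as genes of this pathway, so matches among them describe that choice. Stretches that carry matches, in capitals, are printed 5′ to 3′ on the strand of the gene (RefSeq, GRCm38.p6). They are from the genes whose levels are followed below, and further matches of Nfkb2 are not printed. For Nfkbia the stretch is chr12:55492648-55492747 on the minus strand. For Cxcl1, Cxcl2 and Ier3 they are chr5:90891141-90891240, chr5:90903771-90903870 and chr17:35821584-35821683 on the plus strand. For Tnfaip3 they are 30-base windows on the minus strand (chr10:19015516-19015545 and chr10:19015411-19015440). For Nfkb2, whose level differed little between groups, it is a 30-base window on the plus strand (chr19:46304688-46304717).
Nfkbia: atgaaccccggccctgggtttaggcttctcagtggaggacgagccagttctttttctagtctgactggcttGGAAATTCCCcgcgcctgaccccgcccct
Cxcl1: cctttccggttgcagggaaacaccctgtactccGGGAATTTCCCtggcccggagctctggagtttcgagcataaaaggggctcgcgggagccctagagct
Cxcl2: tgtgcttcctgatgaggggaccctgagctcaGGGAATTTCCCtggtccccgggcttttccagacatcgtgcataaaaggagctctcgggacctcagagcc
Ier3: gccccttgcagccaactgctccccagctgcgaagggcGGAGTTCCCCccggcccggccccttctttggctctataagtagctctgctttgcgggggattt
Tnfaip3, far site: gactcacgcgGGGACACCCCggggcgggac
Tnfaip3, near site: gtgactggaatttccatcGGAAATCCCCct
Nfkb2: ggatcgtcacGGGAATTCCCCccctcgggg

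In Cxcl1 and Cxcl2, neighbouring paralogs on chromosome 5 with 10755 bases between them, the capitals spell the same 11 letters, GGGAATTTCCC, where matches on both strands overlap. The match lay 71 to 61 bases before the RefSeq start of Cxcl1 and 97 to 87 before that of Cxcl2. In Nfkbia it lay 29 to 20 bases before the start, in Ier3 92 to 83 bases, and in Tnfaip3 at 125 to 116 and at 12 to 3 bases. Nfkb2 held an overlapping pair at 39 to 29 bases and another match at 11 to 2 bases. For Tnfaip3 and Nfkb2 the RefSeq start lies inside the gene as deposited, so their matches lie within the gene coordinates given below. An AP-1 element, searched as TGANTCA and present in 6.75% of promoters, matched in the first Tnfaip3 promoter and the second Nfkb2 promoter. Neither the cAMP response element TGACGTCA (1.55% of promoters) nor the homeodomain core TAATTA (4.84%) occurred in the windows of these 6 genes. A match is a run of letters, and binding was not measured.

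**Figure D1:**
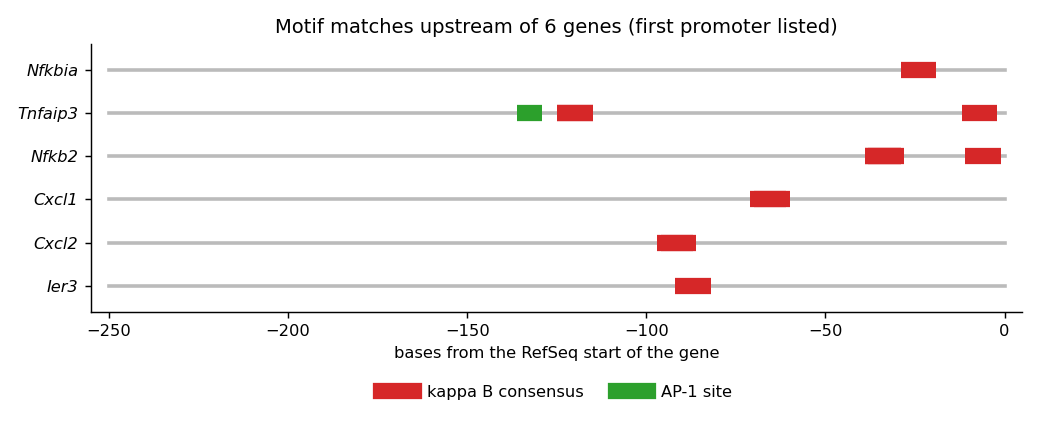
Matches to the kappa B consensus (red) and to the AP-1 element (green) in the 250 bases before the RefSeq start of 6 genes, with distance from the start in bases on the x axis. All 6 genes hold a kappa B match between 125 bases and the start, and Tnfaip3 alone of these first promoters holds an AP-1 match.

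All 3 inhibitor transcripts were higher in WT than in EV and higher again in c915dup. Nfkbia encodes IkB alpha, the classic inhibitor that NF-kB itself induces, on chromosome 12 (GRCm38 55489410 to 55492647, minus strand, 6 exons in its fullest annotated transcript). Its level was 54.4, 58.7 and 55.3 FPKM in EV libraries 1, 2 and 3, 77.3, 74.1 and 77.6 in WT, and 112, 114 and 114 in c915dup libraries 1, 3 and 4. All WT libraries lay above all EV libraries and below all c915dup libraries, with gaps far wider than the spread inside any group. Group means were 56.1 ± 2.30, 76.4 ± 1.92 and 113 ± 0.773 FPKM (SD, n = 3 each), a ratio of 1.36 for WT over EV, 2.02 for c915dup over EV and 1.48 for c915dup over WT. On the log2(FPKM + 1) scale the differences were 0.44 ± 0.05, 1.00 ± 0.05 and 0.56 ± 0.05 (SE). Between the libraries numbered 1 they were 0.50, 1.03 and 0.54, and among the others 0.41, 0.98 and 0.58.

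Nfkbiz encodes IkB zeta, a nuclear IkB protein that acts as a cofactor for a subset of NF-kB target genes, on chromosome 16 (55811375 to 55838899, minus strand). It was the most abundant of the 10 transcripts per length in each group, above 98.3% of the tested genes in EV. The libraries read 236, 231 and 222 FPKM in EV, 318, 322 and 317 in WT, and 443, 451 and 445 in c915dup. Its groups were ordered as for Nfkbia, with no overlap. Means of 230 ± 7.05, 319 ± 2.60 and 447 ± 4.20 FPKM gave ratios of 1.39, 1.94 and 1.40 for WT over EV, c915dup over EV and c915dup over WT. The log2 differences were 0.47 ± 0.04, 0.96 ± 0.04 and 0.48 ± 0.04, being 0.43, 0.91 and 0.48 between the libraries numbered 1 and 0.49, 0.98 and 0.49 among the rest.

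Tnfaip3 encodes a ubiquitin-editing enzyme that shuts down signalling upstream of the IkB kinases (chromosome 10, 19000910 to 19015657, minus strand). Its transcript was scarce, at 4.53, 5.78 and 4.95 FPKM in EV, 6.41, 7.18 and 6.27 in WT, and 7.48, 8.02 and 7.56 in c915dup. The groups again did not overlap, though the highest EV library came close to the lowest WT library. Means were 5.09 ± 0.637, 6.62 ± 0.490 and 7.69 ± 0.292 FPKM. The difference was 0.52 ± 0.09 for c915dup against EV, 0.33 ± 0.09 for WT against EV and 0.19 ± 0.09 for c915dup against WT, on the log2 scale. In the same order they were 0.62, 0.42 and 0.20 between the libraries numbered 1, and 0.47, 0.28 and 0.19 among the rest. The difference of c915dup against EV passed the limma threshold over all genes, and it lost that call when EV 1, EV 3 or any of c915dup 1, 3 and 4 was left out, with differences from 0.45 to 0.53.

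**Figure D2:**
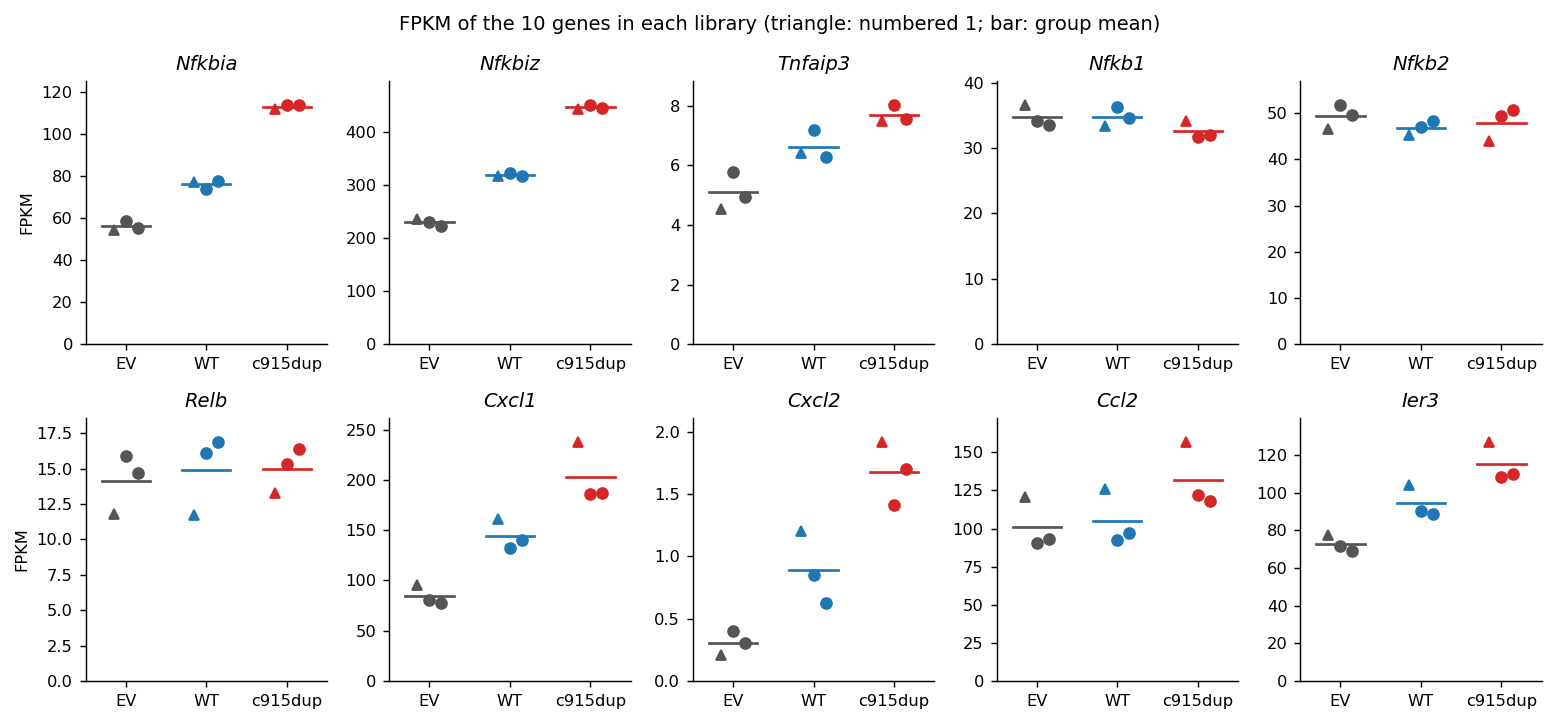
FPKM of each of the 10 genes (y axis, from 0, a scale for each gene) in the 3 libraries of EV, WT and c915dup; triangles are libraries numbered 1, circles the others, and bars the group means. Nfkbia, Nfkbiz, Tnfaip3, Cxcl1, Cxcl2 and Ier3 step up from EV to WT to c915dup with no overlap, whereas Nfkb1, Nfkb2, Relb and Ccl2 overlap between groups.

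The subunit genes differed little by group. Nfkb1, the precursor of a DNA-binding subunit that pairs with RelA in the classical dimer (chromosome 3, 135584655 to 135691547, minus strand), read 36.6, 34.2 and 33.5 FPKM in EV, 33.4, 36.3 and 34.6 in WT, and 34.1, 31.7 and 32.0 in c915dup. All 3 groups overlapped. Means were 34.7 ± 1.64, 34.7 ± 1.47 and 32.6 ± 1.27 FPKM, and the log2 differences were 0.00 for WT against EV and -0.09 for c915dup against either, each ± 0.06. In WT against EV the difference was -0.13 between the libraries numbered 1 and 0.06 among the rest, in c915dup against WT 0.03 and -0.15, and in c915dup against EV -0.10 and -0.08.

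Nfkb2, the precursor of the DNA-binding subunit of the alternative pathway (chromosome 19, 46304320 to 46312385, plus strand), read 46.7, 51.8 and 49.6 FPKM in EV, 45.2, 47.1 and 48.3 in WT and 43.9, 49.4 and 50.8 in c915dup. Relb, its usual partner (chromosome 7, 19606217 to 19629438, minus strand), read 11.8, 15.9 and 14.7 FPKM in EV, 11.7, 16.1 and 16.9 in WT and 13.3, 15.3 and 16.4 in c915dup. In both genes the groups overlapped, and the lowest library of each group was the one numbered 1. The log2 differences lay between -0.07 and 0.03 for Nfkb2, each ± 0.07, and between 0.02 and 0.09 for Relb, each ± 0.15. Within the libraries numbered 1 or within the rest they stayed between -0.09 and 0.07 for Nfkb2 and between -0.06 and 0.17 for Relb. Nfkb2 overlaps the antisense genes Psd and AC114539.1, of which the higher reached 5.38 FPKM, and no source used here says whether strand was used to assign fragments.

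Setting an inhibitor against a subunit within each library removes differences in scaling. Nfkbia stood at 1.49, 1.72 and 1.65 times the FPKM of Nfkb1 in EV, at 2.32, 2.04 and 2.25 times in WT, and at 3.30, 3.58 and 3.55 times in c915dup. The mean ratio was 1.62 ± 0.12, 2.20 ± 0.142 and 3.48 ± 0.155 (SD, n = 3), with no overlap. For Nfkbiz over Nfkb1 the means were 6.62 ± 0.161, 9.20 ± 0.335 and 13.7 ± 0.624. Both ratios thus more than doubled from EV to c915dup in libraries where the subunit transcript itself overlapped between groups. In bulk RNA, more cells with the transcript and more transcript per cell cannot be told apart.

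Cxcl1 encodes a chemokine that draws neutrophils through the receptor Cxcr2 (chromosome 5, 90891241 to 90893115, plus strand, 4 exons). Its libraries read 95.1, 80.3 and 77.7 FPKM in EV, 161, 132 and 140 in WT, and 238, 186 and 187 in c915dup. In each group the library numbered 1 was the highest, and the groups did not overlap. Means of 84.4 ± 9.35, 144 ± 14.9 and 203 ± 30 FPKM gave ratios of 1.71 for WT over EV, 2.41 for c915dup over EV and 1.41 for c915dup over WT. The log2 differences were 0.77 ± 0.12, 1.26 ± 0.12 and 0.49 ± 0.12, being 0.75, 1.31 and 0.56 between the libraries numbered 1 and 0.78, 1.23 and 0.45 among the others. With the library number in the fit the SE fell from 0.12 to 0.04, and the difference of c915dup against WT was called there and without the libraries numbered 1. The call of WT against EV was lost without EV 2, EV 3, WT 1, WT 2 or WT 3, with differences of 0.69 to 0.83.

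Cxcl2, a paralog that binds the same receptor (chromosome 5, 90903871 to 90905938, plus strand), was barely detected. It read 0.207, 0.399 and 0.307 FPKM in EV, 1.2, 0.847 and 0.629 in WT, and 1.92, 1.41 and 1.70 in c915dup, or an estimated 3 to 6, 10 to 20 and 23 to 30 fragments a library. The groups were ordered without overlap, and the gene passed the filter on low values only through the c915dup libraries and WT 1. Means were 0.304 ± 0.0960, 0.892 ± 0.288 and 1.68 ± 0.255 FPKM. On the log2(FPKM + 1) scale, which understates changes at such levels, the differences were 0.53 ± 0.14, 1.04 ± 0.14 and 0.51 ± 0.14 for WT against EV, c915dup against EV and c915dup against WT. With 0.1 in place of 1 added to the FPKM they were 1.28, 2.16 and 0.87. Between the libraries numbered 1 they were 0.87, 1.28 and 0.41, and among the rest 0.36, 0.92 and 0.56. WT 1 was the highest WT library and EV 1 the lowest EV library.

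Ccl2 encodes a chemokine that draws monocytes through the receptor Ccr2 (chromosome 11, 82035571 to 82037453, plus strand, 3 exons). Unlike Cxcl1, its libraries overlapped between groups, at 121, 90.7 and 92.9 FPKM in EV, 126, 92.4 and 97.3 in WT, and 157, 122 and 118 in c915dup. The library numbered 1 was the highest of each group by a wide margin. Means were 101 ± 16.6, 105 ± 18 and 132 ± 21.2 FPKM, and the log2 differences were 0.05 ± 0.15 for WT against EV, 0.38 ± 0.15 for c915dup against EV and 0.33 ± 0.15 for c915dup against WT. Compared number by number the differences were alike: 0.06, 0.38 and 0.32 between the libraries numbered 1, and 0.05, 0.39 and 0.34 among the others. The SE was 0.03 once the library number was in the fit, and both differences of c915dup were called there and, of the other fits run, only in the one without the libraries numbered 1.

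The balance of Cxcl1 and Ccl2, the abundant chemokines among the members, also differed by group. Both are members, so their ratio describes the choice of genes as well. Cxcl12, outside the members, stood above both in EV at 134 FPKM. Cxcl1 over Ccl2 within a library was 0.789, 0.886 and 0.837 in EV, 1.28, 1.43 and 1.44 in WT, and 1.52, 1.52 and 1.58 in c915dup. Ccl2 therefore exceeded Cxcl1 in each EV library and Cxcl1 exceeded Ccl2 in each library with LMX1A. Mean ratios were 0.837 ± 0.0487, 1.38 ± 0.0901 and 1.54 ± 0.0350, with a smaller relative spread than either chemokine alone.

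Ier3, an early-response gene linked to cell survival and induced by many stimuli (chromosome 17, 35821684 to 35822923, plus strand, 2 exons), read 77.6, 71.8 and 69.0 FPKM in EV, 104, 90.4 and 88.6 in WT, and 127, 108 and 110 in c915dup. No groups overlapped, and the library numbered 1 was the highest in each. Means were 72.8 ± 4.37, 94.2 ± 8.23 and 115 ± 10.4 FPKM, in ratios of 1.29 for WT over EV, 1.58 for c915dup over EV and 1.22 for c915dup over WT. The log2 differences were 0.37 ± 0.08, 0.65 ± 0.08 and 0.28 ± 0.08, which were 0.41, 0.70 and 0.29 between the libraries numbered 1 and 0.34, 0.62 and 0.28 among the others. Those of WT against EV and of c915dup against WT were not called in the fit of group alone, and were called with the library number in the fit, where the SE was 0.03, and without the libraries numbered 1.

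**Figure D3:**
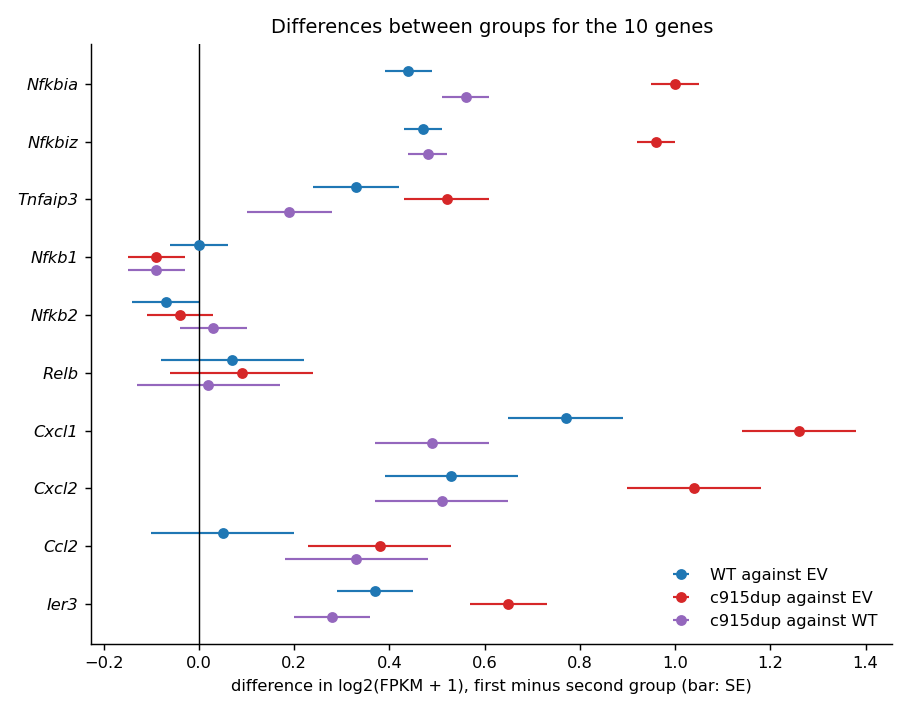
Difference in mean log2(FPKM + 1) (x axis) for the 10 genes (y axis), WT against EV in blue, c915dup against EV in red and c915dup against WT in purple; bars are the SE of the limma fit over 9 libraries. The red points of Nfkbia, Nfkbiz, Cxcl1 and Cxcl2 lie between 0.96 and 1.26, and the 3 subunit genes stay between -0.09 and 0.09.

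Seen together, 8, 8 and 9 of the 10 genes had a positive difference in WT against EV, c915dup against EV and c915dup against WT. The groups did not overlap for the same 6 genes, Nfkbia, Nfkbiz, Tnfaip3, Cxcl1, Cxcl2 and Ier3, in each of the 3 comparisons, always with the first-named group higher. Of all tested genes, 6.70% lay higher and 6.17% lower without overlap in WT against EV, 9.29% and 7.58% in c915dup against EV, and 9.23% and 6.85% in c915dup against WT. The limma fit over 11933 genes (two-sided, Benjamini-Hochberg adjusted p under 0.05) called 3 members higher and 0 lower in WT against EV, namely Nfkbia, Nfkbiz and Cxcl1, where it called 0.302% of all tested genes higher and 0.0503% lower. In c915dup against EV it called 6 higher and 0 lower, adding Tnfaip3, Cxcl2 and Ier3, against 0.964% and 0.126% of all genes. In c915dup against WT it called 2 higher and 0 lower, Nfkbia and Nfkbiz, against 0.218% and 0.00838%. That last pair of shares stands for 26 genes higher and 1 lower over the whole table, a split that became 35 and 10 with equal totals and 60 and 13 with median-of-ratios scaling, while the members called stayed at 2. Since the members were selected on these comparisons, those shares stand beside their counts as a description, and no excess is read from them.

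Median log2 differences of the 10 genes were 0.35, 0.58 and 0.31 in the 3 comparisons, beside -0.0047, -3e-04 and 0.0016 over all tested genes. With the library number in the fit, 4, 7 and 5 members were called higher and 0 lower. The same fit called 0.804% of all genes higher and 0.411% lower in WT against EV, 3.44% and 2.10% in c915dup against EV, and 3.13% and 1.68% in c915dup against WT. The comparisons with EV share the EV libraries, so their values for a gene are not independent of each other. Whether the 3 libraries of a group are separate cultures is not stated in the labels, so the errors and p-values measure the spread between these libraries alone.

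The order of the members by FPKM, a level per length, changed in the middle ranks. In EV it ran from Nfkbiz through Ccl2, Cxcl1, Ier3, Nfkbia, Nfkb2, Nfkb1, Relb and Tnfaip3 to Cxcl2, and only the ranges of Ccl2 and Cxcl1 overlapped among neighbours. In WT Cxcl1 stood ahead of Ccl2 with no overlap, and the ranges of Ccl2 and Ier3 overlapped. In c915dup Ccl2, Ier3 and Nfkbia had overlapping neighbours in that order, between 108 and 157 FPKM, while Nfkb2 lay well below at 43.9 to 50.8. Against the tested genes as a whole in EV, Cxcl1 stood above 94.5%, Ccl2 above 95.6%, Ier3 above 93.4%, Nfkbia above 90.8%, Relb above 59.4% and Tnfaip3 above 28.8%.

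Library number, which the choice of members did not use, gave another order of the members than group did. The split of number 1 from the rest was itself seen in these data, where those libraries stood apart. Its p-values therefore describe that split and are no independent test of it. Ccl2 averaged 134 FPKM in the 3 libraries numbered 1 and 102 in the other 6, a log2 difference of 0.39 ± 0.03 (limma with group in the fit, adjusted p = 5e-06), and was highest in the library numbered 1 in 3 of 3 groups. Cxcl1 was also higher there, 165 against 134 FPKM (0.29 ± 0.03, adjusted p = 9.4e-05, 3 of 3 groups). Ier3 followed at 103 against 89.7 FPKM (0.19 ± 0.03, adjusted p = 0.00087, 3 of 3 groups).

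A pair of subunit genes went the other way. Relb averaged 12.2 FPKM in the libraries numbered 1 and 15.9 in the others (-0.35 ± 0.05, limma adjusted p = 0.00069, lowest in 3 of 3 groups). Nfkb2 averaged 45.3 and 49.5 FPKM (-0.13 ± 0.03, limma adjusted p = 0.017, lowest in 3 of 3 groups), and its adjusted p was 0.063 without EV 1 and 0.105 without c915dup 1. The other 5 genes did not pass the test: Nfkbia (-0.02, adjusted p = 0.69), Nfkbiz (0.01, 0.75), Tnfaip3 (-0.10, 0.25), Nfkb1 (0.04, 0.51) and Cxcl2 (0.12, 0.47). The libraries numbered 1 thus held 3 members higher and 2 lower, where the same fit called 21.0% of all tested genes higher and 10.0% lower, or 2511 and 1196 genes. With equal totals those became 1776 and 1629, with median-of-ratios scaling 1672 and 1785, and the 5 members called kept their directions. The higher mitochondrial share of these libraries moved with the same split, and its part in these differences was not tested.

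**Figure D4:**
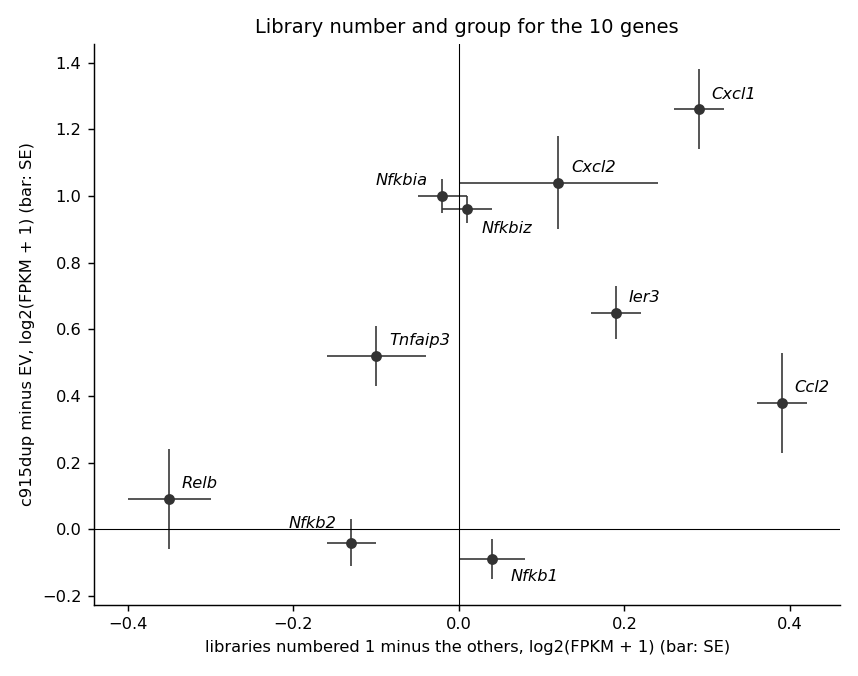
For each of the 10 genes, the log2 difference of the libraries numbered 1 from the others (x axis) and of c915dup from EV (y axis), with SE bars from limma. Nfkbia and Nfkbiz lie near 0 across and near 1 up, Ccl2 lies at 0.39 across and 0.38 up, and Relb lies at -0.35 across and 0.09 up.

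Across the 9 libraries, the profile of Nfkbia was most like those of Sgk1, a kinase gene induced by serum and glucocorticoids (Pearson r = 0.994, 101, 129 and 176 FPKM on average in EV, WT and c915dup), Hbegf, a growth factor gene (r = 0.984), and Nr4a1, an orphan nuclear receptor gene (r = 0.981, 96.0, 161 and 233 FPKM). Cxcl1 was most like Ankrd1, an ankyrin-repeat protein gene known from stressed heart muscle (r = 0.99), the salt-inducible kinase gene Sik1 (r = 0.988) and the ephrin receptor gene Epha2 (r = 0.987). Ankrd1 averaged 55.7, 78.9 and 108 FPKM. Ccl2 was most like Sf1 (r = 0.992), Cdk8 (r = 0.981) and Ewsr1 (r = 0.979), genes of splicing and transcription. Sf1 averaged 91.1 ± 8.39, 92.6 ± 10.8 and 106 ± 12.1 FPKM (SD), so like Ccl2 its means were close in EV and WT and higher in c915dup. These SDs are large beside the differences of the means, so the correlation also reflects variation inside groups. These likenesses are over libraries that share groups, numbers and depth, and are descriptions of 9 points. The ranking left out the other members, human LMX1A, microRNA and small nucleolar RNA genes, and genes with predicted or clone names.

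The rest of the pathway, 128 genes in 10 lists of which 92 were tested, had genes called in both directions against EV. In WT against EV 1 rose and 4 fell by limma, where 0.302% of all tested genes rose and 0.0503% fell. In c915dup against EV 4 rose and 4 fell, beside 0.964% and 0.126% of all tested genes. In c915dup against WT 0 rose or fell, beside 0.218% and 0.00838%. At an unadjusted p under 0.05 stood 20 of the 92 (21.7%) in WT against EV beside 6.13% of all tested genes, 21 (22.8%) beside 11.4% in c915dup against EV, and 10 (10.9%) beside 10.4% in c915dup against WT. The lists were chosen with earlier results of these data known. These shares, and the p-values of listed genes below, are therefore descriptions and no evidence about the pathway as a whole. With the library number in the fit the counts were 5 and 5, 10 and 9, and 5 and 2. That fit called 0.804% of all tested genes higher and 0.411% lower in WT against EV. The shares were 3.44% and 2.10% in c915dup against EV, and 3.13% and 1.68% in c915dup against WT. Median log2 differences of the 92 were -0.013, -0.008 and 0.008.

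The closest partners of the members are the other subunits and IkB proteins. Rela, the activating subunit that Nfkbia holds back, averaged 28.7 ± 2.06, 27.3 ± 0.894 and 30 ± 1.74 FPKM in EV, WT and c915dup, and Rel averaged 3.86, 3.90 and 4.65 FPKM. Neither subunit passed the test in any comparison, nor did any of the 3 tested genes of the IkB family outside the members, Bcl3 (7.11, 5.92 and 6.11 FPKM), Nfkbie (6.38, 7.28 and 7.05) and Nfkbib (7.23, 6.56 and 6.72). Of 14 kinases, Irak2, which relays signals of interleukin and Toll-like receptors, rose in c915dup against EV from 5.19 ± 0.682 to 11.6 ± 1.35 FPKM (1.03 ± 0.13, limma adjusted p = 0.0054). Its WT mean was 8.34 ± 1.47 FPKM and neither other comparison passed (limma adjusted p = 0.22 and 0.26). With the library number in the fit, Tbk1 and Tab1 also rose in c915dup against EV (limma adjusted p = 0.014 and 0.023). In c915dup against WT that fit called Tbk1 and Chuk higher (limma adjusted p = 0.045 and 0.02) and Ripk1 lower (0.04).

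None of 15 adaptors and ubiquitin ligases, 12 other negative regulators or 10 receptors passed without the library number in the fit. With it, the receptor gene Tnfrsf12a rose in all 3 comparisons (limma adjusted p = 0.016, 8.8e-05 and 0.02), from 75.8 FPKM in EV to 87.1 in WT and 98.7 in c915dup. Zc3h12a, which encodes an RNase that degrades inflammatory transcripts, rose in that fit in c915dup against EV alone among the negative regulators (3.96 and 5.45 FPKM, limma adjusted p = 0.029). Of 10 ligand genes, 7 missed the filter, with a highest value of 0.042 FPKM for Tnf, 0.0382 for Il1a and 0 for Il1b. The other 3 were Tnfsf12, which encodes the ligand of Tnfrsf12a (10.8, 9.30 and 8.55 FPKM in EV, WT and c915dup), Il18 (7.51, 7.24 and 8.44) and Il33 (3.38, 2.60 and 2.43). None passed in the fit of group alone, and with the library number Tnfsf12 and Il33 fell in c915dup against EV (limma adjusted p = 0.01 and 0.041). Receptors of the member chemokines were likewise at most 0.0244 FPKM for Cxcr2 and 0 for Cxcr1 and Ccr2. Ackr3, at 17.1, 18.1 and 19.0 FPKM, was the only chemokine receptor gene of 9 to reach the filter.

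Of 10 other chemokine genes tested, Cxcl10 rose in c915dup against EV, from 18.5 ± 0.968 to 24.2 ± 0.437 FPKM (0.37 ± 0.06, limma adjusted p = 0.017). That call was lost without EV 1, EV 2, c915dup 3 or c915dup 4, with an adjusted p of at most 0.086 over the 17 alternatives. Cxcl5, a CXC chemokine of the same receptor as Cxcl1, averaged 24.3, 18.7 and 20.3 FPKM and did not pass. Cxcl12, which also lies below EV in both groups (134, 111 and 109 FPKM), did not pass in the fit of group alone and fell with the library number in it (limma adjusted p = 0.0019 and 0.00068).

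Among 22 other known targets, movement went in both directions. Saa3, an acute-phase protein gene, fell from 13.5 ± 0.523 FPKM in EV to 4.28 ± 0.955 in WT (-1.47 ± 0.13, limma adjusted p = 0.00089) and 4.99 ± 0.736 in c915dup (-1.28 ± 0.13, adjusted p = 0.00094). Nos2, the inducible nitric oxide synthase gene, fell from 9.75 to 5.14 and 5.91 FPKM (limma adjusted p = 0.00089 and 0.0018). Lcn2, which encodes an iron-siderophore carrier, fell from 12 to 6.82 and 5.73 FPKM (limma adjusted p = 0.0053 and 0.00043), and the complement gene C3 fell from 8.81 to 6.0 and 5.58 FPKM (0.0055 and 0.00092). None of these 4 genes lost a call under any alternative.

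Lif, a cytokine gene, rose from 4.97 ± 0.253 FPKM in EV to 7.37 ± 0.660 in WT (limma adjusted p = 0.027) and 7.82 ± 0.129 in c915dup (0.0054). Its call in WT was lost under 10 of 18 alternatives, among them those without EV 1, EV 2, EV 3, WT 1, WT 2, c915dup 3 or c915dup 4, with an adjusted p of up to 0.18. Ptgs2, which encodes the inducible cyclooxygenase, rose in c915dup against EV from 31.2 ± 3.90 to 51.4 ± 8.44 FPKM (limma adjusted p = 0.025), with 41.4 ± 2.88 FPKM in WT. Without EV 2, EV 3, WT 3, c915dup 3 or c915dup 4 it did not pass, with an adjusted p of up to 0.12. Against WT it did not pass in the fit of group alone (adjusted p = 0.42) and rose with the library number in it (limma adjusted p = 0.0088). The latter fit also called Junb and Ptx3 higher and Csf1 and Vcam1 lower in c915dup against EV (limma adjusted p = 0.001, 0.028, 0.022 and 0.011). In c915dup against WT it called Junb higher and Vcam1 lower (0.0037 and 0.021), and in WT against EV Ptx3 and Ptgs2 higher (0.0045 and 0.0017).

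**Figure D5:**
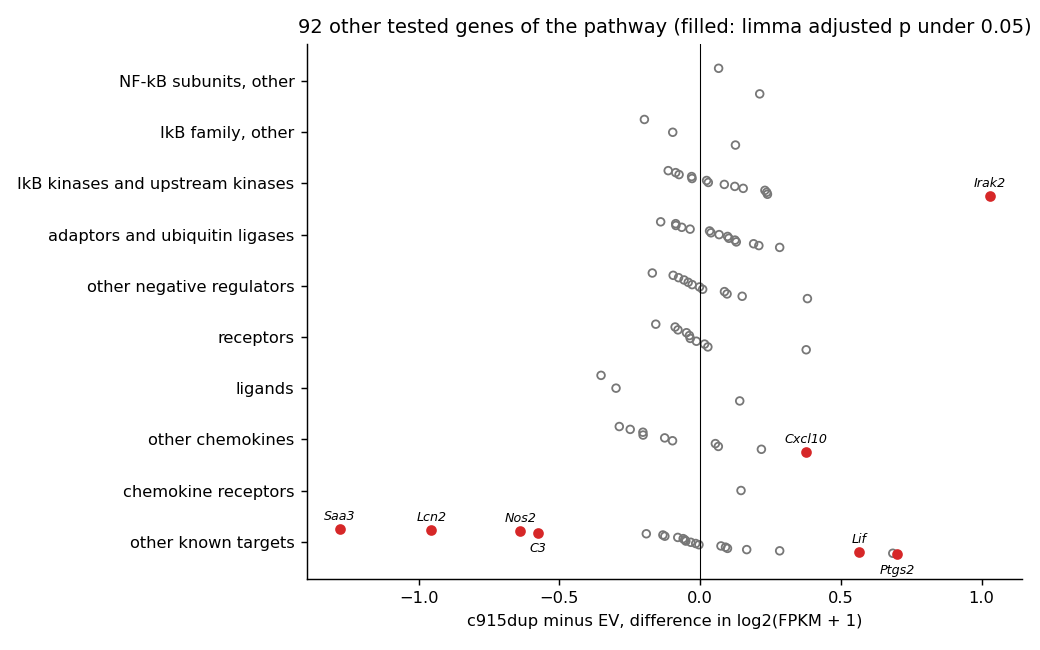
Difference in mean log2(FPKM + 1) of c915dup from EV (x axis) for the 92 other tested genes of the pathway, 1 point a gene, by list (y axis); filled points passed the limma adjusted p threshold of 0.05. The filled points are 4 rises (Irak2, Cxcl10, Lif and Ptgs2) and 4 falls (Saa3, Lcn2, Nos2 and C3).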

How the data were processed

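Per the labels' protocols and the series' design text, total RNA (Trizol) from HEI-OC1 cells was made into 9 TruSeq libraries, sequenced on a NovaSeq 6000. The unit of the deposited gene table is not named in its header; its values were read as FPKM per gene, normalised by the authors. The submitters' processing notes name CASAVA 1.8, Trimmomatic, FastQC, HISAT2, RSEM, edgeR and GRCm38, whereas the series' design text names BWA, TopHat and Cufflinks, so which of these made the values is not settled. Gene coordinates equalled the mouse GENCODE release M21 for 55442 of 55451 genes. A second deposited table (16512 genes) repeated those values (148608 of 148608 cells equal) and was not used further.

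Genes reaching 1 FPKM in 3 or more libraries (11933, all 10 members among them) were tested as log2(FPKM + 1) with limma 3.58.1 in R 4.3.3 (9 libraries, group means, trend and robust variances, two-sided, Benjamini-Hochberg over all tested genes, threshold 0.05), after a check on simulated data. No count test was run, since FPKM are not counts. The depth per library is an approximation, and 3 libraries a group limit the precision of each SE. The members, the lists of other genes and the markers were chosen with earlier results of these data known. Named outside the members are up to 3 tested genes a list with the smallest p, the called genes, those near 0 in the ligand and receptor lists, and the 3 genes most correlated with each of Nfkbia, Cxcl1 and Ccl2; the genes called with the library number in the fit and those near 0 were picked after their values were seen.

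c915dup columns could be tied to their group but not to single samples, since their numbers (1, 3 and 4) differ from those of the titles. Same-numbered columns deviated together from their group means in each of 7 pairs (r of 0.621 to 0.656 for number 1, 0.235 to 0.388 for the others). Differently numbered columns gave -0.499 to -0.38 where 1 of them was numbered 1 and 0.275 to 0.424 otherwise, so only number 1 stood apart from the rest. The fit "with the library number" has a term for number 1 against the others, a split seen in these same data. Alternatives changed the pseudocount, filter, scaling, block, variance model and libraries.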

Additional observations from a re-analysis of the deposited data

How the results depend on the processing

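Over 30 group differences of the members, each under 17 or 18 alternatives, 515 of 520 values moved by less than the residual SD and none of the 190 values of a called difference changed sign. Many of these values could not move. A change of filter, block or variance model, the 2 groups alone, or leaving out a library of the third group keeps the difference of means unchanged. For such alternatives only the SE and the call could change. Of these 190, 176 stayed called, and the 14 that did not are Cxcl1 in WT against EV and Tnfaip3 in c915dup against EV, 7 alternatives each. For all genes in WT against EV (42 called), the count was 24 with no filter, 145 with the replicate block, 89 with a block of 3 numbers in EV and WT alone, 27 with the 2 groups alone, 83 without the libraries numbered 1, and 19 to 40 with 1 library left out (19 without EV 2 or EV 3, 23 without WT 2, 26 without WT 1). In c915dup against EV (130), it was 66, 661 with the block, 63 with the 2 groups alone, 403 without the libraries numbered 1, and 61 to 111 with 1 left out (80, 67 and 61 without EV 1, 2 and 3, 83 without WT 3, 70 and 63 without c915dup 3 and 4). In c915dup against WT (27), it was 10 with no filter, 45 with equal totals, 73 with median-of-ratios scaling, 574 with the block, 14 with the 2 groups alone, 349 without the libraries numbered 1, and 8 to 36 with 1 left out (13 without EV 2 or c915dup 1, 12 without WT 1 or c915dup 4, 10 without EV 3 or WT 2, 8 without WT 3 or c915dup 3). For library number (3707), it was 2195 with no filter and 2311 to 3542 with 1 left out (2311 without c915dup 1, 2380 without EV 1). Members called in c915dup against WT went from 2 to 5 with the block or without the libraries numbered 1, and with 1 left out member counts were 2 to 3, 5 to 6 and 2 in the 3 comparisons and 4 to 5 by library number. Other pathway genes called went from 5 to 10 with either block and 8 without the libraries numbered 1 in WT against EV, from 8 to 19 and 17 in c915dup against EV, and from 0 to 7 and 3 in c915dup against WT, with 4 to 5, 6 to 8 and 0 when 1 library was left out. With 1 library left out, a group of 2 is assumed to vary like the others. The cause of these shifts was not tested. Cxcl2, at an estimated 3 to 30 fragments a library, is where depth limits most, and the unit itself rests on the values.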
